A study of Danio rerio with 6 samples.

Results

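Hepatocyte identity is held by a small network of DNA-binding proteins, and 9 genes of that network outside the nuclear receptor family were looked for by symbol. Of these, 6 were found among the 21589 genes of the deposited table, and all 6 passed the filter on low counts that 19573 genes passed. The 5 described here are cebpa, cebpb, cebpd, onecut1 and gata4. The symbols prox1a, hhex and gata6 were not matched, and these 3 genes are not analysed here under those names. The samples were livers of zebrafish (Danio rerio) at the larval stage of 7 dpf (days after fertilization). There were 3 libraries of foxn3 overexpression livers, whose larvae carried a transgene for this forkhead-box transcription factor, and 3 of wild-type siblings without it. The labels do not say which promoter drives the transgene, which foxn3 sequence it carries, or how many larvae went into a library. Separate clutches or pools are not stated either. Each p-value therefore sets the difference between groups only against the spread among these libraries, which may be technical variation.

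The liver arises from foregut endoderm, where GATA4 helps to start the hepatic programme. Onecut factors, among them the HNF6 protein of mammals, act on the choice between hepatocyte and bile duct cell fate. In the mature liver the CCAAT/enhancer binding proteins (C/EBPs) bind DNA as basic leucine zipper dimers: in mice C/EBP alpha drives genes of glucose and lipid metabolism, while C/EBP beta and C/EBP delta are induced in the acute phase response to inflammation. Several of these factors also work outside the liver, GATA4 in heart, and C/EBPs in leukocytes and fat cells. In bulk liver RNA fewer cells of a type and less RNA per cell cannot be told apart.

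Total counts ran from 10891720 to 12550954 in transgenic and from 7732478 to 12214349 in wild-type libraries. foxn3 had 167, 207 and 219.7 CPM (the count scaled to a library total of 1e+06 after TMM correction) in the transgenic libraries and 27.1, 18.9 and 43.1 CPM in the wild-type libraries, so every library went with its label. Its log2 fold change was 2.74 ± 0.30 (SE), and edgeR's quasi-likelihood test with adjustment by Benjamini-Hochberg over 19573 genes gave an adjusted p of 0.11. Over the alternatives that adjusted p ran from 1.1e-14 to 1. Of 47 names of plasma protein genes of the hepatocyte 36 were matched, so their share is that of a partial list. These genes took 10.3 to 11.1% of the deposited table's counts in transgenic and 9.77 to 11.5% in wild-type libraries. Per exon length the most abundant of them were the transferrin gene tfa and the fetuin gene fetub. The transcripts fabp10a and apoa2 are not part of that share or of the totals. They stood among 6 IDs that the authors listed apart under a heading of over 50000 counts. Yet 13 genes left in the table, tfa and fetub among them, also exceeded 50000 counts in every library. Exocrine pancreas transcripts were also present, at 0.553, 1.27 and 0.888% of the counts of transgenic libraries 1, 2 and 3, against 0.364, 0.819 and 0.411% in wild-type libraries 1, 2 and 3 (20 of 20 markers tested, none at 0 in any library). Of these 20 markers, 19 had positive fold changes, beside 50.6% of all genes. Their median was 0.86 (log2), or 0.35 without transgenic library 2. In edgeR 5 were higher at an unadjusted p under 0.05, as 0.869% of all genes were, and 0 passed an adjusted p of 0.05. Of 12 islet markers 8 were positive, with a median of 0.88, and 5 were higher at an unadjusted p under 0.05 in edgeR. These markers took only 0.00354, 0.00994 and 0.00914% of the counts in transgenic libraries 1, 2 and 3. In wild-type libraries 1, 2 and 3 they took 0.00281, 0.00481 and 0.00529%. The part of pancreas RNA in the values of the 5 genes was not tested.

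The 5 genes covered a wide range of levels, which were compared between genes as FPKM, the authors' value per exon length and library total. Over all 6 libraries cebpd averaged 71.4 FPKM, cebpb 64.0, cebpa 33.7, gata4 17.5 and onecut1 1.96 FPKM. In rank, cebpd was gene 930 and cebpb gene 1009 of the 21589 by mean FPKM, cebpa 1605 and gata4 2752. onecut1 was gene 12637, so that 4 of the 5 stood above 87% of the table and onecut1 above 41.5% of it.

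Not every step of that order exceeded the spread between libraries. cebpd was above cebpb in only 3 of 6 libraries, with a ratio of means of 1.11, so these 2 genes were not ordered. cebpb was above cebpa in 6 of 6 libraries, with its lowest value (50.3 FPKM) above the highest of cebpa (40.5 FPKM). cebpa was likewise above gata4 in 6 of 6 libraries, though its lowest value, 22.6 FPKM, lay not far above the highest gata4 value, 20.1 FPKM. onecut1 was below gata4 in 6 of 6 libraries, by a ratio of means of 8.93.

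**Figure D1:**
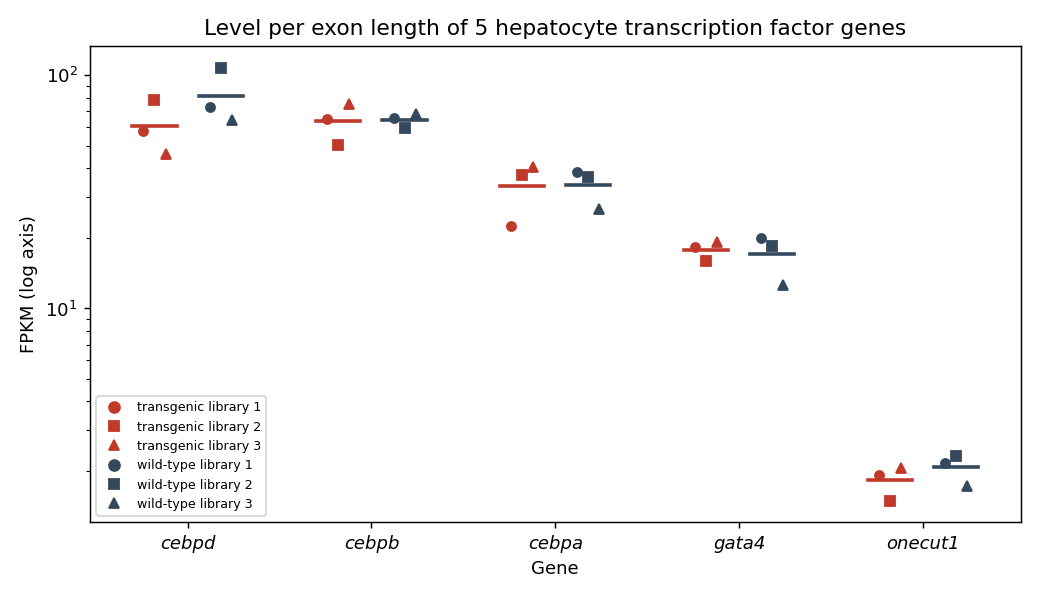
Level of each of the 5 genes in FPKM on a log axis, with 1 symbol per library (transgenic red and on the left, wild type dark on the right) and a bar at the mean of each group of 3. The groups overlap for all 5 genes, cebpd and cebpb share the top of the order, and onecut1 lies between 1.50 and 2.33 FPKM, far below the others.

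The question put to these genes was whether transgenic and wild-type livers held different amounts of their RNA. No difference was called for any of the 5. By edgeR 0 of the 5 passed at an adjusted p of 0.05, where 0% of all 19573 genes passed in either direction. At an unadjusted p under 0.05 there were also 0 of the 5, where 0.869% of all genes were higher and 1.38% lower, together 2.25%. The groups of 3 overlapped for all 5 genes, while 6.45% of all genes had groups that did not overlap, 3.31% being higher and 3.15% lower in transgenic livers. DESeq2 and limma-voom also called 0 of the 5. Fold changes were positive for 3 genes and negative for 2. Their median was 0.02 on the log2 scale, beside 0.00367 over all genes tested. The 95% intervals of all 5 included 0, and the widest, that of cebpd, ran from -0.99 to 0.34.

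**Figure D2:**
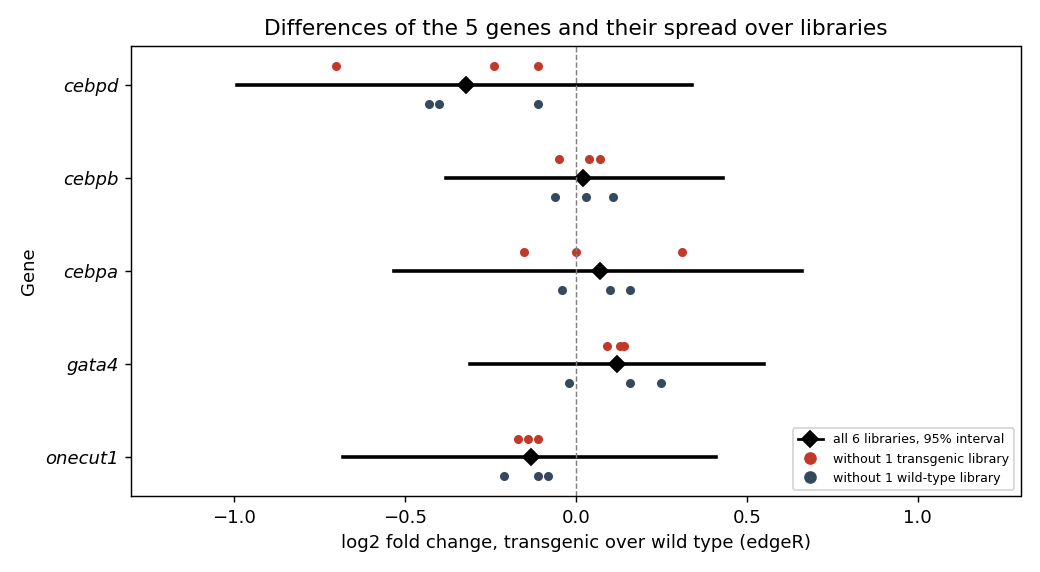
Log2 fold change, transgenic over wild type, of each gene in edgeR with its 95% interval (diamond and line) and the values after leaving out 1 transgenic (red, above) or 1 wild-type (dark, below) library. All 5 intervals cross 0, and the point of cebpd without transgenic library 2, at -0.70, lies farthest from 0.

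Among the C/EBP genes, cebpa encodes the factor that in mice maintains the metabolic programme of the hepatocyte. It lies on chromosome 7 (39477840 to 39479965, minus strand, Zv9, ENSDARG00000036074), with an exonic length equal to its span of 2126 bp, which leaves no intron in the table's record. cebpa had 46.2, 93.8 and 81.2 CPM in transgenic libraries 1, 2 and 3, against 79.3, 73.0 and 58.8 CPM in wild-type libraries 1, 2 and 3. Transgenic library 1 was the lowest of all 6 and transgenic library 2 the highest, so the transgenic group enclosed the wild-type group. The means were 73.7 ± 24.7 CPM in transgenic and 70.4 ± 10.5 CPM in wild-type livers (SD, n = 3 each). As a log2 fold change this was 0.07 ± 0.26 (SE), with a 95% interval from -0.53 to 0.66 (unadjusted p = 0.81 in edgeR). It was 0.31 without transgenic library 1 and -0.15 without transgenic library 2, and -0.02 on unscaled library totals, so cebpa had no settled direction.

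cebpb encodes C/EBP beta, which takes part in the acute phase response and in liver regeneration in mice. Its record is also a single stretch without intron, on chromosome 8 (29301377 to 29302892, minus strand, Zv9, ENSDARG00000042725). cebpb had 95.1, 90.0 and 108 CPM in the transgenic libraries and 97.2, 84.6 and 107 CPM in the wild-type libraries. The values of the groups interleaved, and the highest library of all 6 was only 1.28 times the lowest. For cebpb the log2 fold change was 0.02 ± 0.18 (SE), with a 95% interval from -0.38 to 0.43 (unadjusted p = 0.90 in edgeR). Its sign turned without transgenic library 3 (-0.05), without wild-type library 2 (-0.06) and on unscaled library totals (-0.02). As a fold the interval runs from 0.766 to 1.35.

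cebpd encodes C/EBP delta, an acute phase factor that is low in resting mouse liver and rises with inflammatory signals. By FPKM it was the most abundant of the 5 genes in 3 of the 6 libraries. The gene lies on chromosome 24 (37059295 to 37061674, plus strand, Zv9, ENSDARG00000087303) and has no intron in the record. cebpd had 132, 219.7 and 104 CPM in transgenic libraries 1, 2 and 3, against 170.0, 242 and 159 CPM in wild-type libraries 1, 2 and 3. Library 2 stood above the others in either group, and the remaining transgenic libraries lay below all wild-type libraries. The means were 152 ± 60.4 CPM in transgenic and 190.3 ± 45.1 CPM in wild-type livers (SD, n = 3 each). This gave a log2 fold change of -0.32 ± 0.30 (SE), for which edgeR gave an unadjusted p of 0.30, with 1 as its adjusted p.

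The size of the cebpd difference rested on single libraries. Without transgenic library 2 its log2 fold change was -0.70 with an unadjusted p of 0.022, and without transgenic library 3 or without wild-type library 2 it was -0.11. The adjusted p was 1 in each of the 12 alternatives. Transgenic library 2 and wild-type library 2 also held the most exocrine pancreas RNA of their groups, at 1.27% and 0.819% of counts. Transgenic library 3, where cebpd was lowest, held more of it than wild-type library 2, at 0.888%. Wild-type library 2 further had the highest share of 10 intestinal markers, 0.181%, where transgenic libraries held 0.0515 to 0.0703% and wild-type libraries 1 and 3 held 0.0506 and 0.0468%. Of 9 intestinal markers tested, 1 had a positive fold change, where 50.6% of all genes did, and the median was -0.99 (log2). The part of pancreas and intestine in the cebpd values was not tested. Leukocyte markers, which would mark another source of C/EBP transcripts, took 0.00462 to 0.00676% of the counts in transgenic and 0.00462 to 0.00714% in wild-type libraries, with none of the 16 entries at 0. Of 15 leukocyte entries tested, 5 had positive fold changes, with a median of -0.05 (log2).

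Taking the 3 C/EBP genes as a pool, the summed level was 146, 166 and 162 FPKM in the transgenic libraries and 178, 204 and 159 FPKM in the wild-type libraries. cebpd made up 39.7, 47.1 and 28.5% of that sum in the transgenic and 41.3, 53.0 and 40.5% in the wild-type libraries. The share of cebpa was 15.5, 22.5 and 25.0% in the transgenic and 21.6, 17.9 and 16.8% in the wild-type libraries. Within a library these shares do not depend on library size or scaling. The ratio of cebpd to cebpa in FPKM was 2.56, 2.09 and 1.14 in transgenic libraries 1, 2 and 3, against 1.92, 2.96 and 2.42 in wild-type libraries 1, 2 and 3. Transgenic library 3 held the lowest ratio of the 6 and transgenic library 1 the second highest, so the groups overlapped. Per length, cebpd and cebpb each stood above cebpa in every library.

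**Figure D3:**
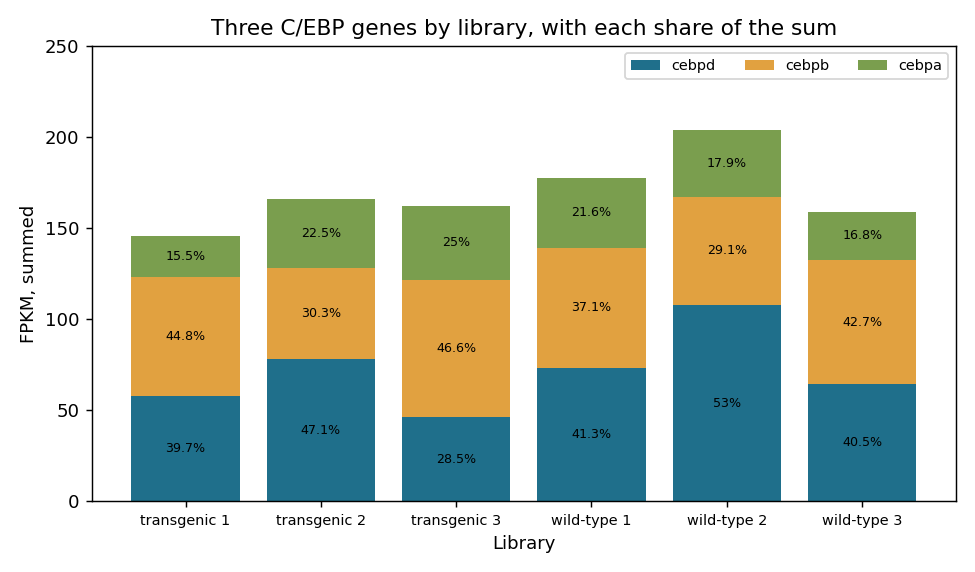
Stacked FPKM of cebpd, cebpb and cebpa in each library (transgenic on the left, wild type on the right), with each gene's share of the sum of the 3 printed in its segment. The cebpa share runs from 15.5% in transgenic library 1 to 25.0% in transgenic library 3, and cebpd is largest in wild-type library 2.

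gata4 encodes a zinc finger factor that acts early in liver and heart formation. Its record lies on chromosome 20 (53586307 to 53602069, minus strand, Zv9, ENSDARG00000035759), and exons cover 7.90% of the span. gata4 had 22.0, 23.5 and 22.7 CPM in the transgenic libraries and 24.4, 21.8 and 16.3 CPM in the wild-type libraries. The transgenic values were close together, and the spread of the wild-type group came from wild-type library 3, the shallowest, with 122 counts of gata4. For gata4 the log2 fold change was 0.12 ± 0.19 (SE), with a 95% interval from -0.31 to 0.55 (unadjusted p = 0.54 in edgeR), and -0.02 without wild-type library 3. Heart markers, which would mark another source of gata4, took 0.00829, 0.0115 and 0.0213% of the counts in transgenic libraries 1, 2 and 3, against 0.0175, 0.0369 and 0.0135% in wild-type libraries 1, 2 and 3. All 8 of these markers were above 0 in every library. Their fold changes were negative for all 8, with a median of -0.73 (log2), where 50.6% of all genes were positive. For 1 of them the groups did not overlap, lower in transgenic livers, as for 3.15% of all genes. The part of heart tissue in the gata4 values was not tested.

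onecut1, the zebrafish namesake of mammalian HNF6, was the least abundant of the 5 genes. It lies on chromosome 18 (37192312 to 37197560, plus strand, Zv9, ENSDARG00000007982). Counts were 41, 35 and 42 in the transgenic libraries and 44, 53 and 25 in the wild-type libraries. In CPM these were 3.46, 3.29 and 3.63 in the transgenic and 3.93, 4.08 and 3.35 in the wild-type libraries, so only wild-type library 3 lay within the transgenic range. The log2 fold change was -0.13 ± 0.24 (SE), with a 95% interval from -0.68 to 0.41 (unadjusted p = 0.59 in edgeR). It stayed negative in all 12 alternatives, between -0.21 and -0.08 without single libraries. Markers of bile duct, a cell type in which onecut factors also act, took 0.280, 0.242 and 0.260% of the counts in transgenic libraries 1, 2 and 3, against 0.235, 0.383 and 0.252% in wild-type libraries 1, 2 and 3 (13 of 13 tested, none at 0). Of these 13 entries 3 had positive fold changes, where 50.6% of all genes did, and the median was -0.12 (log2). The bile duct share and the CPM of onecut1 were both highest in wild-type library 2. That library also had the highest shares of intestinal, kidney, skeletal muscle, heart, fibroblast and leukocyte markers, so the coincidence is not particular to bile duct. The part of bile duct cells in the onecut1 values was not tested.

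Variation between libraries, whatever the group, also differed among the 5. The SD of log2 CPM over the 6 libraries was 0.45 for cebpd and 0.37 for cebpa, and 26.1% and 38.4% of all genes tested varied more. It was 0.21 for gata4, 0.14 for cebpb and 0.12 for onecut1, and 96.5% of all genes varied more than onecut1 and 93.7% more than cebpb. onecut1 had only 25 to 53 counts a library. Counting noise at that depth adds to an SD on average, so a value this low over 6 libraries may be an accident. Its low SD therefore cannot be read as steady expression. None of the 5 reached the SD of 0.5 set for naming genes of like pattern. For cebpd and cebpa, chosen for this after their values were seen, likeness was the root mean square difference of centred log2 CPM over the 6 libraries against 19572 other genes. The nearest to cebpd was the lipoprotein lipase gene lpl, at 0.08, with 703, 1328 and 650.0 CPM in transgenic libraries 1, 2 and 3 and 942, 1340 and 951 CPM in wild-type libraries 1, 2 and 3. The nearest to cebpa were COBLL1, at 0.06, with at most 2.54 CPM, and the calreticulin family gene calrl2, at 0.08, with 66.5, 113.5 and 109 CPM in the transgenic libraries and 105, 97.4 and 82.0 CPM in the wild-type libraries. Whether the number of genes searched alone gives such nearness was not tested. The other members were farther off: gata4 was the nearest to cebpa, at 0.29, and onecut1 the nearest to cebpd, at 0.40.

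In the genome the 5 genes lie on 5 chromosomes, and no other gene of the table overlapped any of them, so no antisense neighbour in the table shares their reads. cebpa has cebpg, the gene of the C/EBP gamma partner protein, at 1807 bp on the opposite strand. cebpg had 31.4, 36.5 and 32.3 CPM in the transgenic libraries and 35.5, 40.4 and 37.6 CPM in the wild-type libraries, a log2 fold change of -0.18 ± 0.16 (SE, unadjusted p = 0.29 in edgeR). In CPM its groups overlapped. In FPKM, which carries no TMM scaling, they did not, with at most 13.9 in transgenic and at least 14.8 in wild-type libraries. How many of all genes do so in FPKM was not counted. In CPM the highest library of cebpg was 1.29 times its lowest, where the neighbour cebpa spanned 2.03 times, and transgenic library 1 was lowest for both.

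Family relatives were looked up as a list of 17 names, of which 15 matched 14 entries and 12 were tested. Of these 12, 4 had positive and 8 negative fold changes, where 50.6% of all genes were positive. The positive count was 2 of 12 without transgenic library 1, 7 of 12 without transgenic library 2 and 8 of 13 without wild-type library 1. Their median log2 value was -0.09 and lay between -0.19 and 0.04 without single libraries, and 0 passed an adjusted p of 0.05. None had an unadjusted p under 0.05 in edgeR, and for none did the groups fail to overlap in CPM. On the positive side the smallest p belonged to onecut3, another onecut domain gene, and DDIT3, of the stress-induced C/EBP family protein CHOP. onecut3 had 19.3, 11.1 and 24.3 CPM in the transgenic and 16.3, 20.1 and 10.04 CPM in the wild-type libraries, a log2 fold change of 0.23 ± 0.32 (SE, unadjusted p = 0.50 in edgeR), with 0.47 without transgenic library 2 and -0.03 without transgenic library 3. For DDIT3 the log2 fold change was 0.15 ± 0.24 (SE, unadjusted p = 0.55 in edgeR), with -0.03 without wild-type library 2 and 0.37 without wild-type library 3. prox2, a PROX relative at no more than 1.43 CPM, had a log2 fold change of -0.73 ± 0.41 (SE, unadjusted p = 0.10).

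The onecut genes differed in level. onecutl, a further onecut domain gene on chromosome 16, had 27.1, 31.3 and 16.2 FPKM in the transgenic and 44.5, 31.5 and 20.6 FPKM in the wild-type libraries. It exceeded onecut1 per length by 13.9, 20.9 and 7.81 times in the transgenic and 20.5, 13.5 and 11.9 times in the wild-type libraries. onecut3 was also low, at 2.95, 1.38 and 3.79 FPKM in the transgenic and 2.46, 3.14 and 1.43 FPKM in the wild-type libraries, above onecut1 in 4 of 6 libraries with overlapping ranges. ONECUT2 lay between onecut1 and onecutl, at 17.0, 8.72 and 12.7 FPKM in the transgenic and 17.0, 10.5 and 11.2 FPKM in the wild-type libraries. The log2 fold change of onecutl was -0.27 ± 0.35 (SE, unadjusted p = 0.45 in edgeR), with -0.62 without transgenic library 2 and 0.04 without wild-type library 1. gata5, a further endodermal GATA gene, was lower than gata4 in every library. The ratios of gata4 to gata5 were 3.32, 3.36 and 2.62 in the transgenic and 3.59, 1.70 and 2.98 in the wild-type libraries.

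The table also holds an entry named prox1, and the RefSeq names give prox1 as a synonym of prox1a, the gene of a homeodomain factor of hepatoblast migration and lymphatic vessels. The entry (ENSDARG00000055158) was picked out after its values were seen and is not counted among the 5. It had 124, 150.3 and 132 CPM in the transgenic libraries and 182, 149.9 and 109.9 CPM in the wild-type libraries, with a log2 fold change of -0.12 ± 0.22 (SE, unadjusted p = 0.59 in edgeR). Per length it stood at 43.9, 43.4 and 47.8 FPKM in the transgenic and 63.9, 54.4 and 36.2 FPKM in the wild-type libraries, so the groups overlapped.

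**Figure D4:**
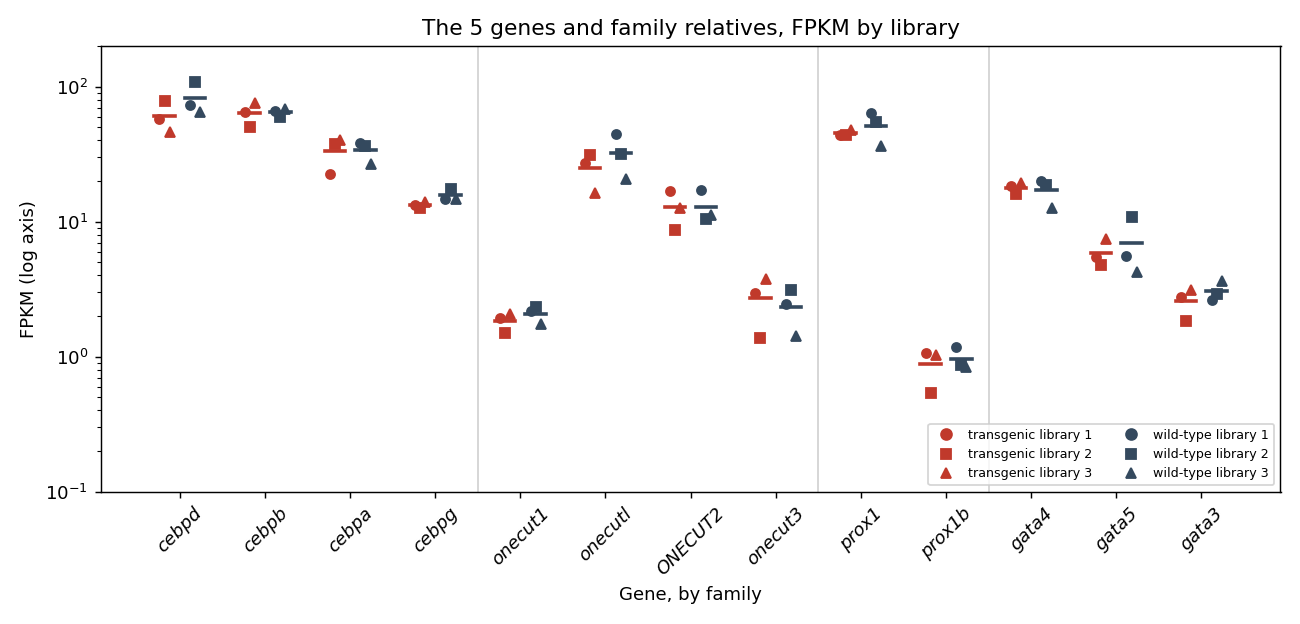
FPKM on a log axis of the 5 genes and 8 of their family relatives, prox1 among them, grouped into C/EBP, onecut, PROX and GATA families by grey lines, with 1 symbol per library (transgenic red and left, wild type dark and right) and bars at group means. onecut1 lies below onecutl and ONECUT2 in every library, and onecut3 lies near onecut1.

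Cytokine signalling upstream of cebpb and cebpd was read from 18 matched genes, of which 16 were tested. Fold changes were positive for 8 and negative for 8 with their median at -0.01 (log2), or 0.08 without wild-type library 2, and 0 passed an adjusted p of 0.05. il6r, the interleukin 6 receptor gene and the most abundant of them per length, had 64.3, 79.6 and 67.4 CPM in the transgenic and 66.0, 65.5 and 64.5 CPM in the wild-type libraries. socs3b, a feedback inhibitor of that pathway, had 19.8, 22.6 and 23.3 CPM in the transgenic and 26.9, 51.8 and 32.0 CPM in the wild-type libraries. Its groups did not overlap, as for 3.15% of all genes in that direction, with a log2 fold change of -0.75 ± 0.25 (SE; edgeR, unadjusted p = 0.013, adjusted p = 1), and -0.42 without wild-type library 2. Its paralog socs3a had 10.7, 10.3 and 5.53 CPM in the transgenic libraries and 8.75, 45.2 and 5.89 CPM in the wild-type libraries. The log2 fold change of socs3a was -1.19 ± 0.66 (SE), and 0.27 without wild-type library 2. cebpd was also highest in that library. It was next highest in transgenic library 2, at 219.7 CPM, where socs3a had 10.3 CPM. A link between socs3a and cebpd was not tested. On the positive side stat1a and rela, which encode transcription factors of interferon and NF-kappaB signalling, had log2 fold changes of 0.31 ± 0.17 and 0.34 ± 0.20 (SE), each with an unadjusted p of 0.11 in edgeR and groups that did not overlap, as for 3.31% of all genes in that direction. For nfkbiab, an NF-kappaB inhibitor gene, the value was -0.15 ± 0.23, and 0.06 without wild-type library 2.

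Other liver transcription factors outside the nuclear receptors gave 26 entries, of which 25 were tested. Of these, 13 had positive and 12 negative fold changes. On the log2 scale their median was 0.05, with -0.01 on unscaled library totals, in limma-voom and with the replicate block. Without transgenic library 2 the median was -0.09, with 10 of 25 positive, and without wild-type library 3 it was 0.10. None passed an adjusted p of 0.05 in edgeR, and 1 had an unadjusted p under 0.05. This was sox9a, a SOX factor gene of cartilage formation, with 5.49, 3.10 and 3.89 CPM in the transgenic and 6.43, 7.31 and 7.36 CPM in the wild-type libraries. Its log2 fold change was -0.75 ± 0.26 (SE, unadjusted p = 0.018, adjusted p = 1 in edgeR). foxa1, a pioneer factor of endoderm, had a log2 fold change of -0.34 ± 0.22 (SE, unadjusted p = 0.17), with -0.52 without transgenic library 2 and -0.19 without transgenic library 3. On the positive side the smallest p belonged to srebf2, of the sterol response, at 0.57 ± 0.27 (SE, unadjusted p = 0.059), or 0.36 without wild-type library 2 and 0.88 without wild-type library 1. The next was the endodermal factor gene sox17, at 0.75 ± 0.43 (SE, unadjusted p = 0.12) with at most 2.20 CPM, and 0.46 without transgenic library 1. The most abundant factor of the list per length was xbp1, of the unfolded protein response, at 120.0, 182 and 137 FPKM in the transgenic and 148, 183 and 158 FPKM in the wild-type libraries, and klf15, a Krüppel-like factor of liver metabolism, followed at a log2 fold change of -0.20 ± 0.26 (SE), with -0.44 without transgenic library 2 and 0.03 without transgenic library 3.

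Secreted hepatocyte products, many of them known targets of C/EBP factors in mammals, were read from 40 entries, of which 39 were tested. Positive fold changes were found for 29 of the 39, beside 50.6% of all genes. Their median was 0.09 (log2), and 0 passed an adjusted p of 0.05. That count rested on scaling and on single libraries. It was 19 of 39 on unscaled library totals and 12 of 39 without transgenic library 2, where the median was -0.08. Without wild-type library 2 the count was 21 of 39, and without transgenic library 3 it was 36 of 39. cp, the ceruloplasmin gene, had 842, 762 and 572 CPM in the transgenic and 1790.5, 941 and 1196 CPM in the wild-type libraries. Its groups did not overlap, as for 3.15% of all genes in that direction. The log2 fold change of cp was -0.85 ± 0.27 (SE, unadjusted p = 0.012, adjusted p = 1 in edgeR), and -0.56 without wild-type library 1. apoeb, an apolipoprotein E gene, had a log2 fold change of 0.69 ± 0.29 (SE, unadjusted p = 0.037, adjusted p = 1), and 0.43 without transgenic library 1. apoa1 was at 0.49 ± 0.25, serpina7 at -0.36 ± 0.34, fetub at 0.21 ± 0.24 and tfa itself at 0 ± 0.30 on the log2 scale (SE), none with an unadjusted p under 0.05. Without transgenic library 2 the value of serpina7 was -0.94, that of fetub 0.06 and that of tfa -0.27. Without transgenic library 3 serpina7 was at -0.12 and fetub at 0.34, and without wild-type library 3 tfa was at 0.19.

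The authors' deposited table gives its own comparison for the 5 genes. Its log2 ratios were 0.05 for cebpa, 0.01 for cebpb, -0.25 for cebpd, -0.10 for onecut1 and 0.10 for gata4, with an adjusted p of 1 for each in the authors' deposited table. The signs were those of the edgeR values, and each deposited ratio was smaller in size. For foxn3 the deposited log2 ratio was 2.1, with an adjusted p of 7.8e-15 by the authors' DESeq2. In edgeR these were 2.74 and 0.11. The exon comparison of the authors' deposited table, a log2 ratio and a chi-square score for uneven use of a gene's exons, is listed at 0 with no exon named for each of the 5. The records of cebpa, cebpb and cebpd have no intron, so uneven use of exons could not show in them. foxn3 is listed at 0 as well, and whether a 0 stands for a test made is not known.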

How the data were processed

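RNA of zebrafish larval livers was read as single-end 50-bp reads from stranded Illumina libraries, per the labels' protocols. Reads were aligned with Novoalign to Zv9 and compared with DESeq2, per the submitters' processing notes. Of their versions, nothing was given in the sources used here. The deposited counts are alignments that overlap a gene by at least 1 bp, per the file headers. Whether strand was used in counting is not stated. FPKM was computed by the authors from the counts with exon length and library total, per the file headers, and carries no TMM scaling. The deposited log2 ratios are DESeq2's, and the deposited scores are 10 times the negative log10 of its adjusted p, turned back into p-values here. The deposited regularized log2 values were not used. The authors listed 10508 IDs apart as under 10 counts and 6 as over 50000, but 13 genes of the deposited table exceed 50000 counts in every library, so the rule behind the second list is not known. In 922 genes the end minus the start equals the exonic length, and in 0 genes this holds after adding 1, so starts count from 0 in the table and were raised by 1 for printing.

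Counts were tested in R 4.3.3 with edgeR 4.0.16 (TMM, filterByExpr by group, glmQLFit, glmQLFTest, transgenic minus wild type, no covariate), with Benjamini-Hochberg adjustment over 19573 genes. Standard errors are the log2 fold change over the root of F, and 95% intervals use edgeR's degrees of freedom. TMM factors were 1.04, 0.848 and 1.06 for transgenic and 1.03, 1.07 and 0.967 for wild-type libraries. Log2 CPM used a prior count of 2. The fits were tested on simulated data. DESeq2 1.42.0, limma-voom (limma 3.58.1), 2 other scalings, no filter, a replicate block and leaving out each library were the 12 alternatives. Symbols are the text before the hyphen in the table's names, ignoring case, and lists also used reference symbols, present for 17069 IDs. One of the members found and some relatives are not reported here. Named genes are the other members, foxn3 and, per list, the 2 genes of smallest p in each direction and the 2 of highest FPKM. ONECUT2, gata5, prox1, lpl, COBLL1 and calrl2 were chosen after their values were seen. The members and lists were chosen with earlier results of these data known.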

Additional observations from a re-analysis of the deposited data

How the results depend on the processing

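For the 5 genes, 52 of 60 alternative values kept the sign of their main value and 8 turned, and 0 passed an adjusted p of 0.05 in edgeR, DESeq2 or limma-voom. On unscaled library totals cebpa and cebpb were both at -0.02. Without single libraries cebpa ran from -0.15 to 0.31, cebpb from -0.06 to 0.11 and gata4 from -0.02 to 0.25. cebpd ran from -0.70 to -0.11 and onecut1 from -0.21 to -0.08, with no change of sign. Over all genes the number called higher was 1 with DESeq2 and 1 with the replicate block (log2 fold change of foxn3 2.73 and 2.81, adjusted p of 1.1e-14 and 0.024), against 0 in edgeR as designed, and 0 to 1 without single libraries. The 1 came without wild-type library 3. The number called lower was 0 throughout. Genes at an unadjusted p under 0.05 were 170 higher and 271 lower. They were 91 higher on unscaled totals and 179 lower with limma-voom. They ran from 80 to 289 higher and from 158 to 579 lower without single libraries. Whether the shared replicate numbers pair the samples is not stated. Deviations of same-numbered libraries had correlations across genes of 0.344, -0.107 and 0.156, and those of other pairs ran from -0.327 to 0.194. With 3 libraries a group these values cannot decide whether the libraries were paired. With the replicate block 231 genes were higher and 406 lower at an unadjusted p under 0.05. Unscaled totals shifted the median of all genes to -0.053. onecut1 had 25 to 53 counts a library, the fewest of the 5 genes.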
